A study of Mus musculus with 2 samples.

Results

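Collagen VI is a microfibril-forming collagen of the extracellular matrix, and its chains are encoded in the mouse by the genes Col6a1, Col6a2, Col6a3, Col6a4, Col6a5 and Col6a6. These 6 genes were taken by symbol from the 32285 genes of the count matrices, which hold 44 collagen genes in all. Their levels were measured in 2 kidney sections with 10x Genomics Visium, an assay in which each spot of a slide tags the polyadenylated RNA of the small tissue area lying on it. By the labels and the design text, both sections came from C57BL/6 mice at day 7 after unilateral ureteral obstruction, an operation that blocks urine outflow from 1 kidney. The first mouse was given SH045 (larixyl N-methylcarbamate), an inhibitor of the cation channel TRPC6, and the second was given the vehicle. Each group is therefore 1 section, cut at 10 µm from fresh frozen tissue and labelled as obstructed kidney, and no test between groups was possible. By its labels, the pair sets an obstructed kidney given this inhibitor beside an obstructed kidney given the vehicle. The effect of treatment cannot be read from it, for reasons given below.

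The classical collagen VI molecule is built inside the cell from an alpha-1, an alpha-2 and an alpha-3 chain, pairs of which assemble into tetramers that are secreted and join end to end as beaded filaments. These filaments lie between basement membranes and the fibrillar collagens, and in the kidney they belong to the interstitium, the vessel walls and the scar that follows injury. The alpha-4, alpha-5 and alpha-6 chains resemble alpha-3 and can take its place in the molecule. The alpha-3 chain is also cut at its C-terminal end, which releases the fragment endotrophin.

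The genes lie in 3 places of the mm10 genome (RefSeq annotation of GRCm38.p6), all on the minus strand. Col6a3 (ENSMUSG00000048126) lies alone at chr1:90766860-90844001. Col6a2 (ENSMUSG00000020241, chr10:76595756-76623630) and Col6a1 (ENSMUSG00000001119, chr10:76708792-76726044) are neighbours, 85.161 kb apart with no protein-coding gene between them. Col6a6 (ENSMUSG00000043719, chr9:105689417-105828246), Col6a5 (ENSMUSG00000091345, chr9:105856070-105962463) and Col6a4 (ENSMUSG00000032572, chr9:105990318-106096828) follow each other with gaps of 27.8 and 27.9 kb that hold no annotated gene. The annotation places 1 other gene, Gm24631, within Col6a4 and none within the other members.

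All 6 members matched the RefSeq promoter table (GRCm38.p6). The 250 bases before the start that this table gives are shown for the 4 chains whose levels carry the results, because these 4 were high in the same spots of the SH045 section. They are read 5′ to 3′ on the minus strand, and for Col6a2, which has 2 starts in the table, the window of the upstream start is given. The table's starts of Col6a3 and Col6a4 lie within the gene extents given above, so these windows lie partly inside those extents. Capitals mark matches on either strand to 6 motifs: the TATA box, the GC box, the CCAAT box, the AP-1 site, the TEAD site and the CAGA box of Smad factors.
Col6a1, chr10:76726045-76726294: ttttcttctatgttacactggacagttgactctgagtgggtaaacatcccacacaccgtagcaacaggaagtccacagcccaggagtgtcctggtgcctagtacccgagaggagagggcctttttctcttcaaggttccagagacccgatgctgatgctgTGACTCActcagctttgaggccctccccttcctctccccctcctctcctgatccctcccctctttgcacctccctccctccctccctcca
Col6a2, chr10:76623631-76623880: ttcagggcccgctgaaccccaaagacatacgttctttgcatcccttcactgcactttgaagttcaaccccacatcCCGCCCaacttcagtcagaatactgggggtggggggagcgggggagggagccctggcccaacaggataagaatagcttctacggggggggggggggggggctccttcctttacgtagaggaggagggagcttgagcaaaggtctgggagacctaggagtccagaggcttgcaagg
Col6a3, chr1:90843972-90844221: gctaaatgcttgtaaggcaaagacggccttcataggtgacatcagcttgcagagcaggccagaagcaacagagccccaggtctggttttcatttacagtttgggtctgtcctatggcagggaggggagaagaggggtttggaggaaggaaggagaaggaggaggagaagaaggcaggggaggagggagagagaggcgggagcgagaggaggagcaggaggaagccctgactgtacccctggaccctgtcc
Col6a4, chr9:106096692-106096941: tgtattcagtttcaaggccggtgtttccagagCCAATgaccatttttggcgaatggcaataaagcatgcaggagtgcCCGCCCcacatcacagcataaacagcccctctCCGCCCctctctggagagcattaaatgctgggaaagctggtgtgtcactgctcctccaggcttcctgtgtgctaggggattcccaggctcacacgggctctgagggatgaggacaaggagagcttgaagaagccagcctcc
The Col6a1 window held 1 AP-1 match, whose first base lies 90 bases before the start, and no other match. The AP-1 site was searched as TGANTCA, which was present in 6.75% of the 32851 promoters of the table. The Col6a2 window held 1 GC box, and the Col6a4 window held 2 GC boxes and 1 CCAAT match. The GC box, searched as GGGCGG, was present in 32.7% of all promoters, and the letters CCAAT in 33.8%. The Col6a3 window held none of the 6 motifs. No motif was common to the 4 windows. The TATA box, searched as TATAAA, was present in 12.4% of all promoters. The TEAD site, searched with the letters GGAATG, was present in 12.6% of them. The CAGA box, searched with the letters CAGACA, was present in 17.1% of them. The downstream start of Col6a2, not shown, had 3 GC boxes and 1 TEAD match before it, and GC box matches can overlap each other. GC content was 56.0% for Col6a1, 59.2% for Col6a2, 57.2% for Col6a3 and 55.2% for Col6a4, against a median of 52.4% over all promoters.

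The libraries were unequal in depth. The SH045 section held 22388623 UMIs (counts of distinct captured molecules) in 790 spots, against 4327613 UMIs over 676 spots for the section labelled Vehicle, a 5.62-fold difference in median UMIs per spot. The section labelled Vehicle did not carry the markers of an obstructed kidney: the tubule injury genes Havcr1 and Lcn2 reached 992 and 1233 CPM in the SH045 section, against 1.62 and 2.08 CPM in the section labelled Vehicle (Havcr1 was named after its values were seen; CPM is UMIs per 1000000 UMIs of the section). Proximal tubule markers summed to 1455 CPM in the SH045 section, against 9453 CPM in the section labelled Vehicle. In addition, the Vehicle positions table flags 1210 spots as tissue, of which 570 are among the 676 spots of the matrix. The sum of Col6a1 to Col6a3 was 24.7 CPM in these 570 spots and 21.5 CPM in the other 106. The 2 libraries share 335 spot barcodes, which are fixed positions of the slide grid and not cells. Whether this section came from an obstructed kidney, or whether its matrix or positions table belongs to another sample, cannot be settled here. Treatment, obstruction, section plane, depth and degree of injury cannot be told apart in this pair, and all differences below are differences between 2 libraries. Mitochondrial genes took 4.24% of the SH045 UMIs, against 10.4% of the Vehicle UMIs.

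Collagen VI was more abundant in the SH045 section for all 3 chains of the classical molecule. Col6a3, the alpha-3 chain, gave 7207 UMIs or 321.9 CPM in the SH045 section (315 to 329, a 95% interval), against 53 UMIs or 12.2 CPM (9.17 to 16.0) in the section labelled Vehicle, a 26.3-fold difference (20.1 to 35.1). Col6a1, the alpha-1 chain, gave 2566 UMIs or 114.6 CPM in the SH045 section and 27 UMIs or 6.24 CPM in the section labelled Vehicle, an 18.4-fold difference (12.6 to 27.9). Col6a2, the alpha-2 chain, gave 1887 UMIs or 84.3 CPM in the SH045 section and 24 UMIs or 5.55 CPM in the section labelled Vehicle, a 15.2-fold difference (10.2 to 23.8). The intervals are exact and cover counting error only, not the variation between mice or sections. In both sections Col6a3 gave the most UMIs and Col6a2 the fewest of the 3. The assay counts a transcript once at its 3′ end, so these values are not scaled to length, and transcripts may be captured unequally. Fewer cells that make a chain and less RNA per cell cannot be told apart.

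The alpha-4 gene Col6a4, which is interrupted in humans but intact in mice, showed the sharpest contrast. It gave 792 UMIs or 35.4 CPM (33.0 to 37.9) in the SH045 section and no UMI in the section labelled Vehicle. Against a floor of 3 counts there (0.693 CPM), it was 51.0-fold higher in the SH045 section, and the exact 95% lower limit of its fold was 41.4. The remaining alpha-3-like genes were close to absent from both libraries. Col6a5 gave 6 UMIs in the SH045 section and 1 UMI in the section labelled Vehicle. Col6a6 gave 7 UMIs or 0.313 CPM (0.126 to 0.644) in the SH045 section and 9 UMIs or 2.08 CPM (0.951 to 3.95) in the section labelled Vehicle, and was thus the only member with a higher level in the Vehicle library, by 6.65-fold (2.20 to 21.0), on 16 UMIs in all. Of the 3 neighbouring genes on chromosome 9, Col6a4 alone was measured, whereas the neighbours Col6a1 and Col6a2 on chromosome 10 were both measured.

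**Figure D1:**
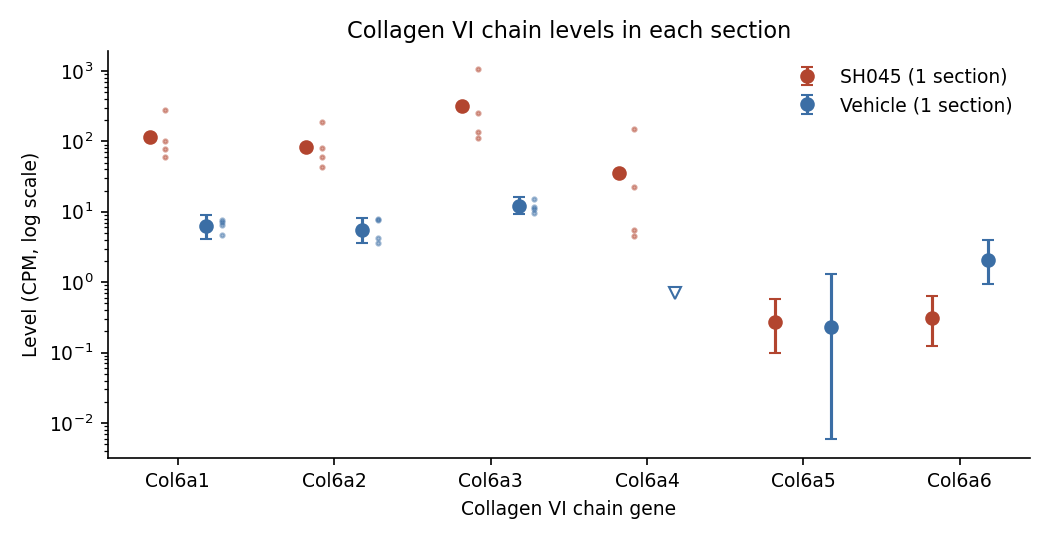
Level of each collagen VI chain gene in CPM (log axis) in the SH045 section (red, left of each pair) and the section labelled Vehicle (blue, right), 1 section each. Large points are section levels with exact Poisson 95% intervals, which are narrower than the point where UMIs are many; small points are 4 position blocks of the section for the first 4 genes, leaving out blocks at 0; the open triangle is the 3-count floor of 0.693 CPM for Col6a4, which had no Vehicle UMI. Every SH045 block lay above every Vehicle block for Col6a1, Col6a2, Col6a3 and Col6a4.

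A gene was called measured at 10 CPM or more in at least 1 section. Of the 6 members, 4 were measured, and all 4 were higher by 1.5-fold or more in the SH045 section, as were 53.2% of the 10463 measured genes. After the median log2 ratio of all measured genes (0.63) was taken off, the 4 were still higher by 1.5-fold, as were 25.4% of the measured genes. All 4 also passed 8-fold, which 5.19% of the measured genes did. On the log2(CPM + 1) scale the ratio of Col6a3 was 4.61, and 0.717% of the measured genes had a higher one. The sum of Col6a1, Col6a2 and Col6a3 had a log2 ratio of 4.38, with 520.8 CPM in the SH045 section, against 24.0 CPM in the section labelled Vehicle (21.7-fold, 17.9 to 26.5). Fibroblast markers, which belong to the main known source of collagen VI, summed to 702 CPM in the SH045 section, against 143 CPM in the section labelled Vehicle (4.89-fold, 4.52 to 5.31). This sum leans on Gsn, which made up 81.8 CPM of the Vehicle value and had a fold of 3.08. Over the 9 measured fibroblast markers, of which 8 were higher and 1 lower, the median log2 ratio was 3.34. That of the 4 measured collagen VI chains was 4.30. The part of fibroblasts in the difference was not tested.

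The chains were spread unevenly over position in the SH045 section. The section labelled Vehicle held only 104 UMIs of Col6a1 to Col6a3, so evenness there can be judged only roughly. The share of spots holding a UMI, which rises with the level, differed between the 2 sections. When each section was cut by position into 4 blocks of similar spot number, the sum of Col6a1 to Col6a3 spanned 215 to 1524 CPM over the SH045 blocks and 22.3 to 25.8 CPM over the Vehicle blocks. Col6a4 spanned 4.49 to 151 CPM over the SH045 blocks. In the SH045 section the block of highest level was the same for these 4 genes. After each spot was thinned to 2500 UMIs to equalise depth, 59.8% of the 788 SH045 spots held at least 1 UMI of Col6a1 to Col6a3 (56.3 to 63.2), against 6.24% of the 561 Vehicle spots (4.38 to 8.57). Without thinning, 785 of 790 SH045 spots and 88 of 676 Vehicle spots held such a UMI. Col1a1, the fibrillar collagen gene, was found in 74.0% of thinned SH045 spots and 2.32% of thinned Vehicle spots. By chain, Col6a3 was found in 44.8% of thinned SH045 spots and 3.03% of thinned Vehicle spots. Col6a4 was found in 8.25% of thinned SH045 spots and in none of the Vehicle spots, where its upper bound was 0.655%.

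Within the collagens, collagen VI took a larger share in the SH045 section. The 6 chains made up 7.64% of all collagen UMIs there (12465 of 163124, 7.51 to 7.77) and 3.16% in the section labelled Vehicle (114 of 3611, 2.61 to 3.78). This share does not depend on the section total. The fibrillar collagens, which form the load-bearing fibres, took 39.2% in the SH045 section and 10.0% in the section labelled Vehicle. The collagen IV chains of basement membranes took 31.9% in the SH045 section and 52.7% in the section labelled Vehicle. Among the 44 collagen genes Col6a3 ranked 8 in the SH045 section and 12 in the section labelled Vehicle by UMIs, and Col6a4 ranked 19 in the SH045 section.

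The share of alpha-3 among the classical chains was larger in the SH045 section, with intervals of the 2 sections that lie next to each other without overlap. Of the UMIs of Col6a1 to Col6a3, Col6a3 held 61.8% (60.92 to 62.7) in the SH045 section and 51.0% (41.0 to 60.90) in the section labelled Vehicle. Col6a1 held 22.0% in the SH045 section and 26.0% in the section labelled Vehicle, and Col6a2 held 16.2% in the SH045 section and 23.1% in the section labelled Vehicle. The Vehicle shares rest on 104 UMIs. The ratio of Col6a3 to Col6a1 was 2.81 (2.68 to 2.94) in the SH045 section and 1.96 (1.21 to 3.25) in the section labelled Vehicle, so the intervals of this ratio overlap.

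Regions were defined in each section by clustering its spots without the 6 members, which gave 8 regions in the SH045 section and 4 in the section labelled Vehicle. Regions are numbered by size and described by their leading genes, and none was given a cell type name. In the SH045 section, regions 3 and 6 stood apart for collagen VI. Region 6 (60 spots) was led by the stratified epithelium genes Krt14, Ivl and Psca with Ppbp and Fxyd3, and its sum of Col6a1 to Col6a3 was 1794 CPM (1721 to 1869). Region 3 (123 spots) had among its leading genes Dio2, which encodes a thyroid hormone deiodinase, Cpxm2, Igfbp2 and Megf6, and its sum was 1687 CPM (1637 to 1737). The next was region 4 (93 spots), led by Fst, Ighg2c, Aqp2, Clca3a2 and Slc12a1, at 445 CPM (414 to 476).

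The other 5 regions were lower still. Region 5, led by Serpina1b, Bcat1, Serpina1a, Serpina1f and Arg2, had 379 CPM. Region 2, with the lymphatic chemokine gene Ccl21a, Ren1, Iglc2 and Ighg2b among its leading genes, had 292 CPM. Region 8, led by Serpina1d and the organic anion transporter genes Slc22a7 and Slc22a19, had 225 CPM, and region 1, led by Vcam1, Stra6, Ccl5, Ccl2 and C3, had 222 CPM. The lowest level, 148 CPM (133 to 165), was found in region 7, led by the proximal tubule genes Slc22a8, Acmsd, Dnase1 and Miox. Within regions the spots varied widely: the spot level ran from 224 to 4399 CPM with a median of 1487 CPM in region 3, and from 749 to 4587 CPM with a median of 1594 CPM in region 6.

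**Figure D2:**
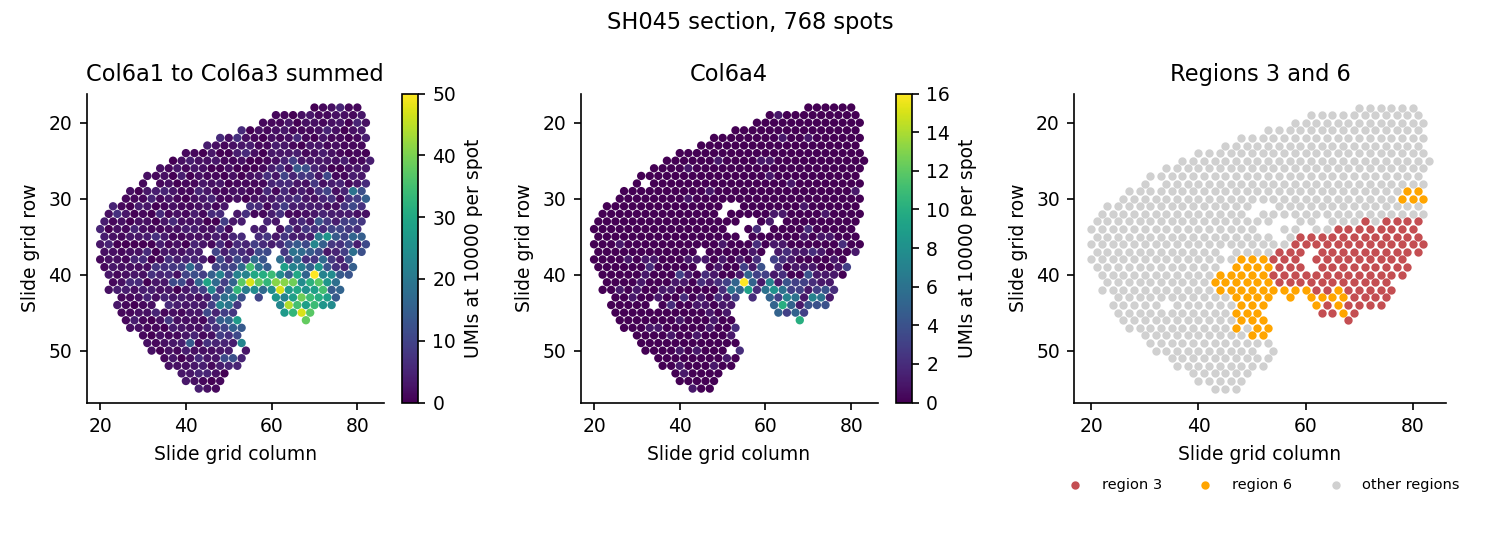
Spots of the SH045 section with at least 10000 UMIs (768 spots), at their slide grid column and row: UMIs of Col6a1 to Col6a3 summed (left), UMIs of Col6a4 (middle), both after thinning each spot to 10000 UMIs, and the spots of regions 3 and 6 (right). The high spots of both measures lie together in the lower right of the tissue, beside an indentation of its outline, and most lie in region 3 or region 6.

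The concentration differed between chains. Regions 3 and 6 were picked out for their level of Col6a1 to Col6a3, so their folds over the other 6 regions describe the pattern and are not tested. Together they held 17.2% of the section's UMIs but 80.1% of the Col6a4 UMIs and 64.2% of the Col6a3 UMIs. The shares of Col6a1 and Col6a2 were lower, 46.4% and 43.6%. Col6a4 had 164 CPM in regions 3 and 6 and 8.53 CPM in the other regions, a 19.3-fold difference (16.2 to 23.1). Col6a3 had 1200 CPM in regions 3 and 6 and 139 CPM in the other regions (8.62-fold, 8.22 to 9.05). Col6a1 had 309 CPM in regions 3 and 6 and 74.2 CPM elsewhere (4.16-fold), and Col6a2 had 213 CPM in regions 3 and 6 and 57.5 CPM elsewhere (3.71-fold). By this fold the 4 chains stood in the order Col6a4, Col6a3, Col6a1, Col6a2. The intervals were 3.85 to 4.50 for Col6a1 and 3.38 to 4.07 for Col6a2. They cover counting error only, not the spread between spots. Col6a3 gave 61.8% of the UMIs of the sum that picked the regions, so the order is a description and was not tested.

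The fold of Col6a3 in regions 3 and 6 was 8.62 (8.22 to 9.05). Col6a3 is part of the sum by which these regions were picked, whereas the lists below are not. Their folds are therefore not on an equal footing with that of Col6a3. The fibrillar, collagen IV and fibroblast folds were smaller, and the intervals of the urothelium and mesothelium lists overlapped that of Col6a3. The fibrillar collagens summed to 6142 CPM in regions 3 and 6 and 2169 CPM in the other regions (2.83-fold, 2.79 to 2.88), and Col3a1 alone was 3.20-fold higher in regions 3 and 6. The collagen IV chains were 1.45-fold higher in regions 3 and 6. Fibroblast markers summed to 1314 CPM in regions 3 and 6 and 575 CPM in the other regions (2.28-fold). Markers of urothelium and stratified epithelium summed to 145 CPM in regions 3 and 6 and 14.7 CPM in the other regions (9.86-fold, 8.51 to 11.4), and those of mesothelium to 32.4 CPM in regions 3 and 6 and 2.59 CPM in the other regions (12.5-fold, 8.90 to 17.8). The epithelial markers lay mostly in region 6, at 386 CPM against 26.3 CPM in region 3, while the collagen VI levels of the 2 regions were close. The part of these cell types in the collagen VI level was not tested.

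**Figure D3:**
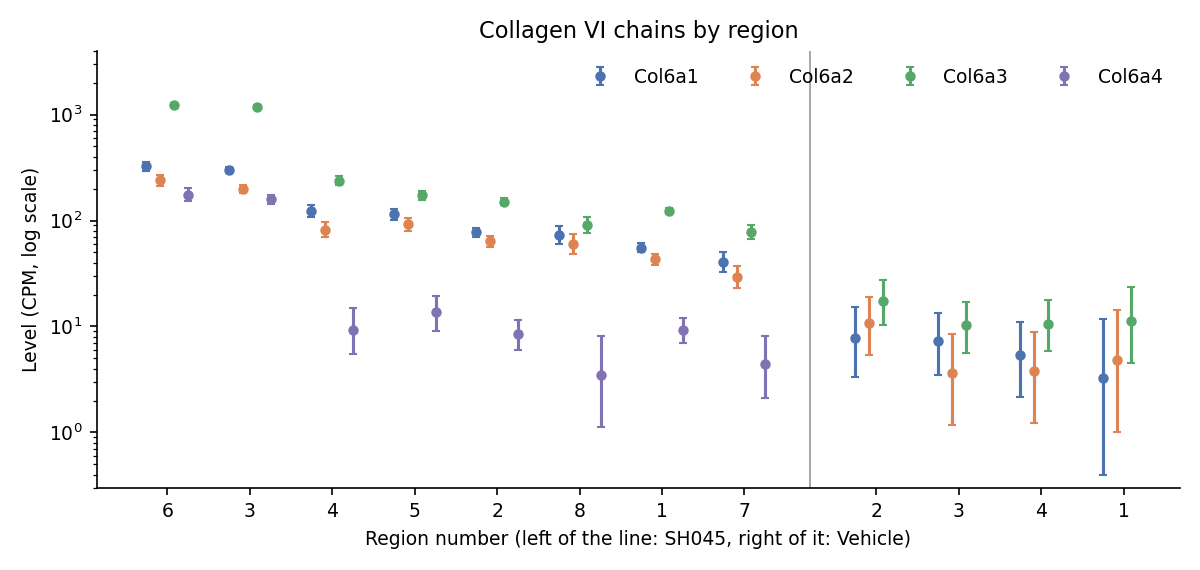
Level in CPM (log axis) of Col6a1, Col6a2, Col6a3 and Col6a4 in each region of the SH045 section (left of the line) and of the section labelled Vehicle (right of it), regions ordered by the sum of Col6a1 to Col6a3. Points are summed over the spots of a region with exact Poisson 95% intervals; Col6a4 had no UMI in any Vehicle region and is not drawn there. Region 7, the lowest SH045 region at 148 CPM summed, lies above the highest Vehicle region at 35.9 CPM.

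The shares of the chains in the RNA counts differed between regions of the SH045 section, and protein was not measured. Regions 3 and 6 were picked by the sum of Col6a1 to Col6a3, of which Col6a3 gave 61.8% of the UMIs. Col6a3 held 70.3% of the UMIs of Col6a1 to Col6a3 in region 3 (68.9 to 71.7) and 68.5% in region 6 (66.6 to 70.4). In the other regions it held between 40.7% (35.3 to 46.3, region 8) and 55.5% (52.9 to 58.1, region 1). The ratio of Col6a3 to Col6a1 was 3.94 in region 3 and 3.78 in region 6, against 1.25 (0.958 to 1.63) in region 8. The ratio of Col6a1 to Col6a2 moved less, between 1.21 in region 2 and 1.52 in region 4. Col6a4 gave 0.134 UMIs per Col6a3 UMI in region 3 and 0.143 in region 6, and 0.0382 to 0.0783 in the others. Collagen VI made up 14.9% of collagen UMIs in region 3 and 13.2% in region 6, against 4.02% to 5.94% in the other regions.

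Regions 3 and 6 had the highest level and the highest Col6a3 share, so leaving them out had to lower both. In the remaining spots the level of the SH045 section was still above that of the section labelled Vehicle. In these 607 spots Col6a3 held 51.4% of the UMIs of Col6a1 to Col6a3 (49.99 to 52.8), against 51.0% (41.0 to 60.9) in the section labelled Vehicle. Collagen VI took 4.63% of collagen UMIs (4.51 to 4.75) there, against 3.16% (2.61 to 3.78) in the section labelled Vehicle. The sum of Col6a1 to Col6a3 was 270.8 CPM there, 11.3-fold (9.28 to 13.8) above the section labelled Vehicle. The folds of the 3 chains were close to each other there, at 11.9 for Col6a1 (8.14 to 18.1), 10.4 for Col6a2 (6.93 to 16.2) and 11.4 for Col6a3 (8.66 to 15.2). Col6a4 at 8.53 CPM was 12.3-fold above its floor in the section labelled Vehicle, with an exact lower limit of 9.89. Even region 7 was 6.16-fold (4.93 to 7.76) above the section labelled Vehicle for the sum. These spots were set apart after the region levels had been seen.

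**Figure D4:**
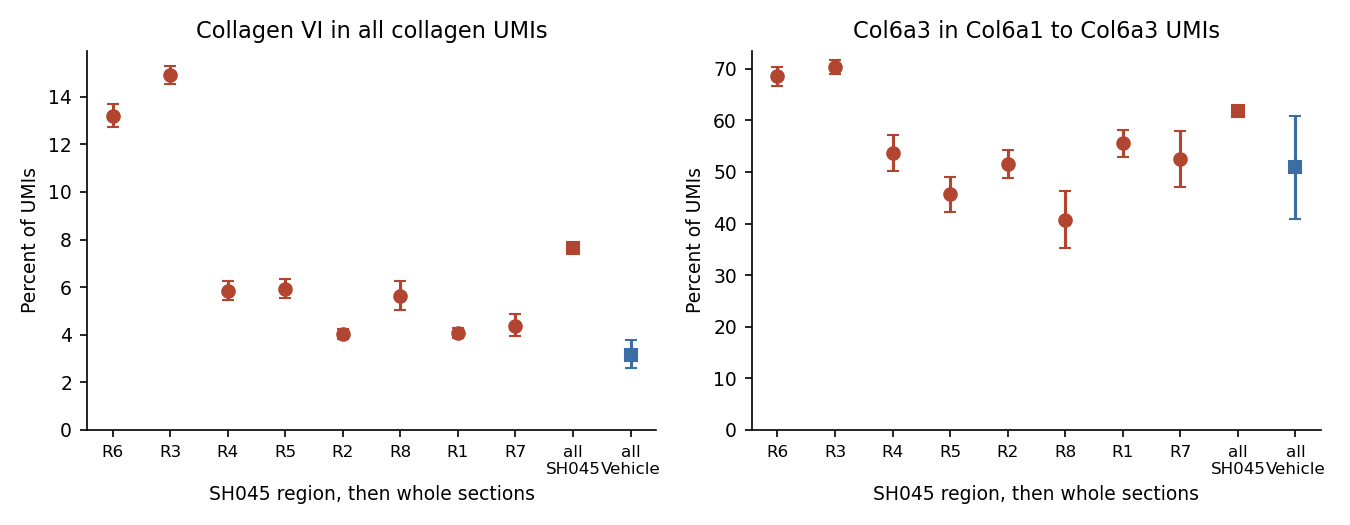
Collagen VI as a percent of all collagen UMIs (left) and Col6a3 as a percent of the UMIs of Col6a1 to Col6a3 (right), by region of the SH045 section (circles, R for region, ordered by collagen VI level), then in the whole SH045 section and the whole section labelled Vehicle (squares). Bars are Clopper-Pearson 95% intervals. Regions 6 and 3 lie above the other 6 regions in both panels.

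In the section labelled Vehicle the chains were too sparse to map. The sum of Col6a1 to Col6a3 lay between 19.4 and 35.9 CPM over the 4 regions. The highest was region 2, led by the kallikrein gene Klk1, Nupr1, Tmem52, H2-Q6 and Plat, at 1.77-fold (1.15 to 2.68) over the rest of the section, on 37 UMIs. That region also had the highest sum of fibroblast markers, 291 CPM against 71.3 to 122 CPM in the others. Moran's I, which is near 0 where neighbouring spots are unrelated, was 0.031 for the summed chains at 2500 UMIs per spot, higher than that of 80.4% of genes. Of the 9 Col6a6 UMIs, 6 lay in region 3, whose leading genes were Pllp, Ggct, AI314278, Susd3 and Dmgdh, and 3 in region 1, each in a separate spot. Region 3 held 31.6% and region 1 held 14.3% of all UMIs of the section. The Col6a6 fold of region 3 over the rest was 4.33, with an interval that includes no difference (0.924 to 26.7).

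Across spots of the SH045 section the chains varied together. Over 768 spots thinned to 10000 UMIs each, Pearson's r on the log scale was 0.58 for Col6a3 with Col6a4, 0.56 for Col6a1 with Col6a3, 0.48 for Col6a2 with Col6a3 and 0.47 for Col6a1 with Col6a2. The pairs of Col6a4 with Col6a1 and Col6a2 gave 0.46 and 0.42. The spots share 1 library and neighbouring tissue, so these values describe this section only. Without regions 3 and 6 the r of Col6a1 with Col6a3 was 0.22 and that of Col6a1 with Col6a2 was 0.26. That of Col6a3 with Col6a4 was 0.016 without them. Leaving out the regions of highest level narrows the range of the chains, and Col6a4 had only 8.53 CPM in the other regions. These lower values therefore cannot show whether the relation lies between or within regions. Counts per spot are few, and r over sums of each spot and its neighbours was 0.77 for Col6a1 with Col6a3. Moran's I was 0.68 for Col6a3, 0.60 for Col6a4, 0.44 for Col6a1 and 0.33 for Col6a2, against a median of 0.019 over 7977 genes of at least 20 CPM. For the summed chains at 2500 UMIs per spot, it was 0.54 in the SH045 section, against 0.031 in the section labelled Vehicle.

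The 5 genes of most similar pattern were then found for each chain. For Col6a3 they were Col3a1 (r 0.65), the matrix metalloproteinase gene Mmp7 (0.63), Inhba, which encodes an activin subunit (0.59), the fibroblast surface gene Thy1 (0.59) and Col6a4 (0.58). For Col6a4 they were Col6a3 (0.58), Mmp7 (0.54), Inhba (0.49), Thy1 (0.49) and the serine protease gene Htra3 (0.48). Those of Col6a1 were Col6a3 (0.56), Col3a1 (0.55), Col1a2 (0.50), Thy1 (0.48) and Col1a1 (0.48). Those of Col6a2 were Col6a3 (0.48), Col3a1 (0.48), Col1a2 (0.47), Col6a1 (0.47) and Thy1 (0.42). The median r over all 7976 genes compared lay between 0.015 and 0.028. Genes of the fibrillar collagens I and III thus stood beside other collagen VI chains among the 5 nearest genes of Col6a1 and Col6a2. At the other end stood Fxyd2, a regulator of the tubular sodium pump, with r of -0.66 to Col6a3 (named after its values were seen).

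Of the cell type marker lists, the fibroblast list had the highest correlation with Col6a3, but not with Col6a4. The r of Col6a3 with the mean score of the 11 fibroblast markers was 0.50, with endothelium markers 0.40, and with urothelium and with smooth muscle and pericyte markers 0.31 each. The value for monocyte and macrophage markers was 0.11, that for injured tubule markers -0.085 and that for proximal tubule markers -0.49. A list score does not describe each member: Lcn2, 1 of the 7 injured tubule markers, had an r of 0.56 with Col6a3. The r of Col6a4 was 0.30 with urothelium markers, 0.29 with fibroblast markers and 0.27 with endothelium markers. At 2500 UMIs per spot it was 0.27 with endothelium markers, 0.24 with urothelium markers and 0.16 with fibroblast markers. In 4 groups of 192 spots ordered by fibroblast score, Col6a3 had 131, 192, 523 and 793 CPM from the lowest to the highest group. Col6a1 had 52.6, 71.4, 164 and 262.5 CPM over the same groups, and Col6a2 had 39.6, 60.4, 116 and 165 CPM. Col6a4 had 13.0, 13.0, 63.0 and 103 CPM, so its level differed mainly between the lower and the upper pair of groups. Adipocytes are another known source of collagen VI, and the 5 adipocyte markers summed to 155 CPM in the SH045 section, against 35.1 CPM in the section labelled Vehicle. Nearly all of this sum was Fabp4, which endothelial cells also express, while Adipoq, Plin1 and Lep had no UMI in either section and Cidec had 16 SH045 UMIs and no Vehicle UMI (Plin1, Lep and Adipoq were named after their values were seen). The adipocyte list was 2.09-fold higher in regions 3 and 6 than in the other regions and had an r of 0.29 with Col6a3, and its part in the collagen VI level was not tested.

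Col6a3 and Col6a4 were lower at greater distance from the tissue edge, whereas Col6a1 and Col6a2 were not. In the SH045 section Col6a3 had 387, 358, 295, 213 and 167 CPM at 1 to 2, 3 to 4, 5 to 6, 7 to 8 and 9 or more grid steps from the edge. Col6a4 had 54.1, 39.7, 21.0, 16.3 and 10.9 CPM at the same steps. Col6a1 stayed between 101 and 132 CPM and Col6a2 between 74.7 and 97.0 CPM with no ordered trend. Regions 3 and 6 lie near the outline (a median of 4 and 3 steps from it). Regions 1, 2 and 7, where collagen VI was lower, lie as near (3, 3 and 4 steps). Col6a3 had 123, 151 and 77.8 CPM in regions 1, 2 and 7, below its 167 CPM at 9 or more steps. The part of regions 3 and 6 in the decline with distance was not tested. Without region 6 the edge level of Col6a1 to Col6a3 summed was 1.13-fold that at 9 or more steps (1.03 to 1.24). With it the fold was 1.49 (1.36 to 1.63). Region 3 was kept in both, and the single chains were not rechecked without these regions. In the section labelled Vehicle the sum lay between 17.3 and 39.3 CPM over the same steps, with overlapping intervals.

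**Figure D5:**
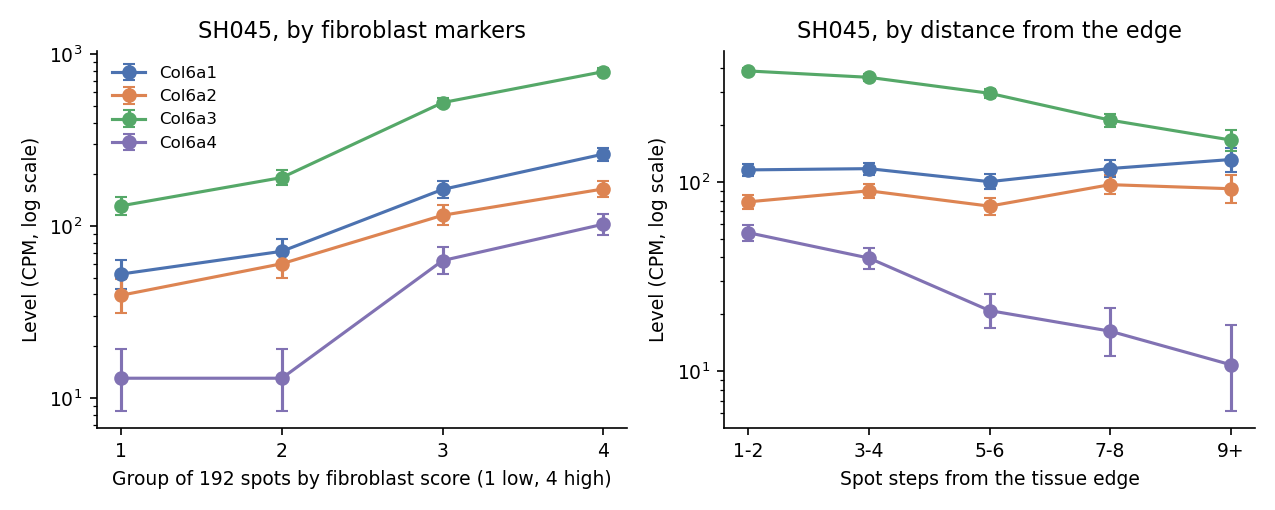
Level in CPM (log axis) of Col6a1, Col6a2, Col6a3 and Col6a4 in the SH045 section by group of 192 spots ordered by fibroblast marker score at 10000 UMIs per spot (left) and by grid steps from the tissue edge (right). Points are sums over spots with exact Poisson 95% intervals. All 4 chains are highest in the group of highest fibroblast score, while Col6a3 and Col6a4 decline with distance from the edge and Col6a1 and Col6a2 do not.

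Genes that act with collagen VI were mostly higher in the SH045 section, beside the 53.2% of all measured genes. Of the receptor list, 5 of 8 genes were measured and all 5 were higher (median log2 ratio 1.97). Itgb1, the beta-1 integrin subunit, had 539 CPM in the SH045 section, against 137 CPM in the section labelled Vehicle. Its partner Itga1 had 149 CPM in the SH045 section, against 53.4 CPM in the section labelled Vehicle, and Cspg4, the NG2 proteoglycan of pericytes, had 26.6 CPM in the SH045 section, against 8.78 CPM in the section labelled Vehicle. The anthrax toxin receptor genes Antxr1 and Antxr2, which bind collagen VI and were named after their values were seen, were 6.02-fold and 5.61-fold higher in the SH045 section. The receptors followed the chains weakly across spots, with r of 0.23 to Col6a3, and were 1.30-fold higher in regions 3 and 6 than in the other regions.

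The matrix partners bind collagen VI or tie it to basement membranes. Of 8 genes 6 were measured and 5 were higher in the SH045 section (median log2 ratio 3.10). The small proteoglycan gene Bgn had 1236 CPM in the SH045 section, against 177 CPM in the section labelled Vehicle. Fn1, fibronectin, had 672 CPM in the SH045 section, against 24.3 CPM in the section labelled Vehicle, and Hspg2, perlecan, had 187 CPM in the SH045 section, against 52.9 CPM in the section labelled Vehicle. The sixth, Vwa1, had 20.2 CPM in the SH045 section, against 24.0 CPM in the section labelled Vehicle (named after its values were seen).

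Genes for folding and hydroxylating collagen chains were higher for 11 of 12, with a median log2 ratio of 1.94. Serpinh1, the collagen chaperone HSP47, had 531 CPM in the SH045 section, against 72.6 CPM in the section labelled Vehicle. Ppib had 405 CPM in the SH045 section, against 226 CPM in the section labelled Vehicle. The 1 gene not called was P4hb, the prolyl hydroxylase beta subunit, with 463 CPM in the SH045 section, against 321 CPM in the section labelled Vehicle. Of the proteases known to cut the alpha-3 C-terminal end, Bmp1 had 113 CPM in the SH045 section, against 8.78 CPM in the section labelled Vehicle, while Furin had 173 CPM in the SH045 section, against 162 CPM in the section labelled Vehicle. Mmp14, below the level of a measured gene, had 7.86 CPM in the SH045 section, against 1.62 CPM in the section labelled Vehicle.

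Among the other collagens, 6 of 6 measured fibrillar collagen genes were higher in the SH045 section (median log2 ratio 4.49, against 4.30 over the 4 measured collagen VI chains). Of the collagen IV chains 3 of 5 measured were higher (1.52), a share near the 53.2% of all measured genes, and 2 of the 5 were lower relative to the median of all genes. Of the 9 measured fibroblast markers 8 were higher, and Gsn, Pdgfrb and Pdgfra had the highest SH045 levels. The 1 lower was Pi16, with 8.58 CPM in the SH045 section, against 19.6 CPM in the section labelled Vehicle. Urothelium and stratified epithelium markers summed to 37.2 CPM in the SH045 section, against 2.08 CPM in the section labelled Vehicle. Of their 11 genes 9, Krt14 among them, had no UMI in the Vehicle library. The part of these cell types in the difference between sections was not tested.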

How the data were processed

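The deposited values are UMI counts per gene and spot of each section, raw and not normalized, made with Space Ranger 2.0.1 per the file headers and with the genome build mm10 per the submitters' processing notes. The annotation release and alignment settings were not given in the sources used here, and the single-cell data of the wider study are not analysed here. From the deposited counts, UMIs were summed over spots and scaled to CPM. Level intervals are exact Poisson, fold intervals exact conditional binomial and share intervals exact (Clopper-Pearson), all at 95% and for counting error only. The log2 ratio used a pseudocount of 1 CPM, which understates low genes, and a count of 0 was bounded by a floor of 3 counts (0.134 CPM in SH045, 0.693 CPM in Vehicle).

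All spots of the Vehicle matrix were used, whatever their tissue flag. Regions were found in each section with scanpy 1.11.5 (2000 variable genes, 20 components, 15 neighbours, Leiden at resolution 0.6) without the 6 members; doublets were not called, since spots hold several cells. Spots were thinned to 2500 UMIs for shares (leaving out 2 SH045 and 115 Vehicle spots) and to 10000 UMIs for correlations (leaving out 22 SH045 spots). TMM factors came from edgeR 4.0.16. Scripts were tested on simulated data.

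Named genes are the members, the 3 of highest SH045 level of each list, the 5 most alike to each of Col6a1 to Col6a4 among genes of at least 20 CPM, and the 5 leading each region at 50 CPM or more, and exceptions are stated; some leading genes of regions are not reported here. The members and lists were chosen with earlier results of these data known.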

Additional observations from a re-analysis of the deposited data

How the results depend on the processing

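In all, 254 alternatives were run over 57 results; 148 gave a value within the counting interval or tolerance of the result, 105 moved it and 1 turned its sign. The 4 measured chains stayed higher in the SH045 section under every alternative run. Median-of-ratios and TMM factors shifted all log2 ratios by 0.66 and 0.59, and gave 3.74 and 3.81 for Col6a1 to Col6a3 summed, against 4.38. Leaving out 1 position block at a time gave 3.62 to 4.65 for this ratio, 5.06% to 8.57% for the collagen VI share of SH045 collagen UMIs and 53.9% to 64.1% for the Col6a3 share, the lowest each without SH045 block 4, where most of regions 3 and 6 lies. Without SH045 regions 3 and 6, chosen after seeing the data, these values were 3.44, 4.63% and 51.4%. Leaving collagen IV out of the denominator gave collagen VI shares of 11.2% in the SH045 section and 6.67% in the section labelled Vehicle.

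The highest fold of a region over the rest of its section was 4.57 in the SH045 section and 1.77 in the section labelled Vehicle. It became 5.21 at resolution 0.4 and 6.63 at resolution 1.0 in the SH045 section, and 2.87 at resolution 1.0 in the section labelled Vehicle. The SH045 edge fold of 1.49 was 1.13 without region 6. The r of Col6a1 with Col6a3 (0.56) was 0.42 at 2500 UMIs per spot, 0.71 on unthinned counts, 0.22 without regions 3 and 6 and 0.77 over neighbourhood sums, the last also added after seeing the data. The r of Col6a3 with fibroblast markers (0.50) was 0.32 at 2500 UMIs and 0.32 without regions 3 and 6, and that with plasma and B cell markers (-0.20) turned to 0.070 without these regions. The share of spots with a UMI of Col6a1 to Col6a3 was 35.8% in the SH045 section and 2.28% in the section labelled Vehicle at 1000 UMIs per spot. No paired analysis was possible because the labels give no replicate numbers and each group has 1 section. Depth limits the section labelled Vehicle, where 104 UMIs carry all values of Col6a1 to Col6a3; the causes of the movements were not tested.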
